A study of Mus musculus with 5 samples.

Results

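The 10 genes described here encode the glucose transporter and enzymes of glycolysis that carry glucose to lactate: Slc2a1, Hk2, Pfkl, Aldoa, Tpi1, Gapdh, Pgk1, Eno1, Pkm and Ldha. They were chosen by name, as 10 of the 28692 genes in the count matrices, and were followed across the bone marrow cell types of 5 mice. The C57BL/6J mice each received 1000 BCR-ABL1 pre-B ALL (acute lymphoblastic leukemia) cells through the tail vein without irradiation, and 1 mouse was examined at each of days 0, 3, 6, 9 and 12 after transplantation. The day 0 mouse had also received the leukemia cells but was killed immediately afterwards, and no untransplanted mouse was measured. Each day is 1 mouse and 1 library, and day therefore cannot be told apart from mouse and library. Marrow of the femurs and tibias was flushed and digested with collagenase and DNase, and red cells were lysed. The cells were then frozen and sent for sequencing, and transcripts were counted at their 3′ ends with unique molecular identifiers (UMIs).

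Glycolysis splits glucose into pyruvate in the cytosol and yields ATP without oxygen. Glucose enters through transporters such as Slc2a1, is trapped by hexokinases such as Hk2 and committed to the pathway by phosphofructokinases such as Pfkl. Aldolase and triose phosphate isomerase (Aldoa, Tpi1) give the triose phosphates that Gapdh, Pgk1, Eno1 and Pkm turn into pyruvate, which Ldha reduces to lactate. Dividing lymphoid precursors, activated lymphocytes and myeloid cells are known for high use of the pathway.

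The upstream sequences of 3 members are shown because these members had the largest fold differences between cycling and other pro/pre-B-like cells, given further on. Each is the 250 bases before the first annotated start in RefSeq (GRCm38.p6), read 5′ to 3′ on the strand of the gene. Capitals mark ACGTG and GCGTG on either strand, the letters of the core element bound by the hypoxia-inducible factors, and CACGTG, the E-box bound by Myc family proteins, which contains ACGTG. Ldha is at chr7:46845554-46845803 on the plus strand, Gapdh at chr6:125165774-125166023 on the minus strand and Hk2 at chr6:82774455-82774704 on the minus strand.
Ldha: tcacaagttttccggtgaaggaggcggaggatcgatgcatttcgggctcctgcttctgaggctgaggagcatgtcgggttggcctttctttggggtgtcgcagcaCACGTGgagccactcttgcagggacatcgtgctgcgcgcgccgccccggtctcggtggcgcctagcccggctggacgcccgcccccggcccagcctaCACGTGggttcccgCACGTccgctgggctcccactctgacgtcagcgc
Gapdh: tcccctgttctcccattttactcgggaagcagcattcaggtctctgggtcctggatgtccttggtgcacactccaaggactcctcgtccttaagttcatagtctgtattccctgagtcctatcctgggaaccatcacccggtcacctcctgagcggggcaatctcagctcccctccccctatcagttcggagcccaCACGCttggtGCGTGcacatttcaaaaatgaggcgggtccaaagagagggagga
Hk2: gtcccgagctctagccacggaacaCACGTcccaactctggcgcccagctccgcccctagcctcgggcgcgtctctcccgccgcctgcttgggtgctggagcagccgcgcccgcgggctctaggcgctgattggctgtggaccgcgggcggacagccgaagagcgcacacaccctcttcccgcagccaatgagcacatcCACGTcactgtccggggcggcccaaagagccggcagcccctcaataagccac
The Ldha window held 2 matches of CACGTG and 5 of ACGTG over both strands. Each CACGTG holds ACGTG on both strands and enters that count 2 times, so fewer than 5 separate stretches are marked. The Gapdh window held 2 of GCGTG, and the Hk2 window held 2 of ACGTG. Of all 32851 RefSeq windows of the same length, 16.6% held ACGTG, 28.2% GCGTG, 38.6% either of them and 6.02% CACGTG. Among the first entries of the 10 members, 7 held ACGTG or GCGTG and 1 held CACGTG. These matches are a description of letters and were not tested as binding sites.

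In the GRCm38 annotation all 10 are protein-coding genes. Ldha lies at chr7:46841475-46855627 (plus strand), Aldoa at chr7:126795234-126800751 (minus), Pgk1 at chrX:106187100-106203699 (plus), Pkm at chr9:59656368-59679375 (plus) and Eno1 at chr4:150236721-150248879 (plus). Gapdh (chr6:125161715-125166467), Tpi1 (chr6:124810586-124814296) and Hk2 (chr6:82725025-82774454) are on the minus strand of chromosome 6. Slc2a1 lies at chr4:119108711-119137983 (plus) and Pfkl at chr10:77986947-78010083 (minus). Another gene model carries the symbol Aldoa, at chr7:126800790-126809108, and was not used for its counts.

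The 5 libraries held 32135 barcodes with at least 500 UMIs, and 29679 were kept at a mitochondrial share of at most 10%. Markers named 26722 of these cells. A cluster was called cycling with at least 60% of the cycling markers, not cycling under 20% and partly cycling between. Neutrophils made up most of them, with 16847 cells named neutrophil-like. There were 3074 monocyte-like and 2127 B-like cells, 1367 pro/pre-B-like cells and 1113 T-like cells. Transplanted leukemia cells and the pro/pre-B cells of the host were not separated, since the labels and files give no mark for them. A level is the summed UMI count of a gene in the cells of one class and library per 10000 UMIs, which carries no gene length because a transcript is counted once at its end. Barcodes holding at most 100 UMIs, taken as free RNA, held S100a8 and S100a9, a pair of abundant neutrophil transcripts, at 1385 to 2045 per 10000 UMIs. In B-like, T-like and NK-like cells the same pair stood at 9.43% to 15.3% of that level. Free RNA itself held Ldha at 3.55 to 4.74, Pkm at 4.43 to 5.11 and Gapdh at 4.40 to 6.51 per 10000 UMIs. Its part in the low levels of lymphoid cells was examined only by subtracting 10% of the UMIs in the profile of free RNA.

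Slc2a1, the basal glucose transporter GLUT1, was the scarcest member, with 855 counts in all named and grouped cells. It was highest by median in NK-like cells, at 0.190, 0.296, 0.187, 0.278 and 0.0510 per 10000 UMIs (day 0, day 3, day 6, day 9 and day 12 in this order here and in each run of 5 values that follows). It was lowest in GMP-like cells (granulocyte-macrophage progenitors), at 0.0249, 0.0103, 0.0235, 0.0142 and 0.0391 per 10000 UMIs. The 2 classes did not overlap, although the highest value of the low class and the lowest of the high class both came from day 12. NK-like values rested on 23 counts and GMP-like values on 20, and no neighbours in the order of the 15 classes were apart.

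Hk2, the hexokinase that binds mitochondria, was highest in the 3 monocyte-like classes. In non-cycling monocyte-like cells it stood at 0.556, 0.648, 0.585, 0.648 and 0.75 per 10000 UMIs over the 5 days. In B-like cells it stood at 0.0833, 0.0372, 0.0316, 0.0541 and 0.132, and the 2 classes were far apart in every library. Hk2 was at 0 in other pro/pre-B-like cells at days 3, 6 and 12, where 0 counts allow up to 0.153, 0.0535 and 0.481 per 10000 UMIs. The whole order divided at 1 place: all values of the monocyte, neutrophil, GMP-like and ST-HSC & MLP-like classes (the last being short-term stem cells and multilineage progenitors) lay above all values of the plasmacytoid dendritic-like and lymphoid classes.

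Pfkl, the liver-type subunit of phosphofructokinase, was highest in the ST-HSC & MLP-like class at 0.233, 0.445, 0.448, 0.323 and 0.167 per 10000 UMIs. Mature neutrophil-like cells held the least, at 0.0339, 0.0349, 0.0376, 0.0295 and 0.0282. Every stem and progenitor value lay above every mature neutrophil value, with a ratio of medians of 9.52, but no neighbouring classes were apart.

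Aldoa, the aldolase of most tissues, was highest in GMP-like cells at 4.78, 4.41, 4.36, 4.12 and 3.57 per 10000 UMIs. It was lowest in other pro/pre-B-like cells at 1.27, 1.38, 1.5, 1.20 and 0.642. The order had 1 step without overlap: the GMP-like, neutrophil and monocyte classes lay above it, and the lymphoid, plasmacytoid dendritic-like and ST-HSC & MLP-like classes below it.

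Tpi1, which interconverts the triose phosphates, had its highest medians in GMP-like, ST-HSC & MLP-like and cycling pro/pre-B-like cells, which overlapped, and its lowest in T-like and mature neutrophil-like cells. GMP-like cells held 2.15, 1.54, 1.92, 2.25 and 2.04 per 10000 UMIs and ST-HSC & MLP-like cells 2.30, 1.99, 2.16, 1.96 and 1.82. T-like cells held 0.397, 0.395, 0.454, 0.353 and 0.314, and mature neutrophil-like cells 0.435, 0.467, 0.491, 0.469 and 0.389. Both pairs overlapped within themselves, and the progenitor values were all above the T-like and mature neutrophil values.

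Gapdh, which makes NADH and a high-energy phosphate, was the most abundant member in all 15 classes. Its medians ran from 3.59 per 10000 UMIs in B-like cells to 12.6 in partly cycling monocyte-like cells. B-like cells held 2.63, 4.18, 3.94, 3.59 and 2.12, and the monocyte-like cells 12.6, 15.3, 13.6, 11.7 and 9.10. The extremes did not overlap, while no neighbours in the order were apart.

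Pgk1, the first ATP-producing kinase of the pathway, ran from 0.369, 0.204, 0.161, 0.264 and 0.160 per 10000 UMIs in other pro/pre-B-like cells to 0.646, 1.05, 0.668, 0.888 and 0.785 in partly cycling monocyte-like cells. A single step without overlap divided the order, below mature neutrophil-like cells, and the lymphoid classes other than cycling pro/pre-B-like cells lay under it together with plasmacytoid dendritic-like cells. The near copy Pgk1-rs7, a processed pseudogene, held 313 counts against 7105 of Pgk1. How many reads the counting lost or moved between them was not tested, which leaves the level of Pgk1 uncertain.

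Eno1, the enolase, was highest in non-cycling and partly cycling monocyte-like cells, with the same median of 4.61 per 10000 UMIs. The non-cycling cells held 4.61, 4.92, 4.93, 4.35 and 3.74, and the partly cycling cells reached 5.33. Plasmacytoid dendritic-like cells held the least, at 0.923, 0.784, 0.749, 0.706 and 1.19. ST-HSC & MLP-like cells were also low at 1.06, 1.4, 1.35, 1.14 and 1.04, while GMP-like cells stood at 3.75, 3.32, 3.39, 4.02 and 3.52 with no overlap between these progenitor classes. The single step without overlap in the order lay below GMP-like cells. Eno1b, a near copy of Eno1, held 2006 counts against 35333.

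Pkm, pyruvate kinase, whose isoforms cannot be told apart by 3′ counts, was highest in partly cycling monocyte-like cells (6.16, 7.21, 6.25, 5.18 and 5.39 per 10000 UMIs) and in mature neutrophil-like cells (6.37, 6.09, 6.09, 5.92 and 5.65). B-like cells held 1.30, 1.91, 1.46, 1.41 and 1.19. The whole order divided at 1 place, with the monocyte, neutrophil and GMP-like classes above it. Cycling pro/pre-B-like and NK-like cells, neighbours further down, were apart as well, but T-like cells at day 6 (2.42) stood above the lowest cycling pro/pre-B-like value (2.34).

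Ldha, the muscle-type lactate dehydrogenase subunit, had the narrowest spread of medians, 2.79-fold. It was highest in cycling pro/pre-B-like cells at 6.18, 4.91, 3.66 and 3.78 per 10000 UMIs at days 0, 3, 6 and 9, where day 12 held 19 cells and was left out. It was lowest in B-like cells at 1.32, 1.71, 1.79, 1.56 and 1.06. The B lineage thus held both ends of the order, without overlap, and no neighbouring classes were apart.

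**Figure D1:**
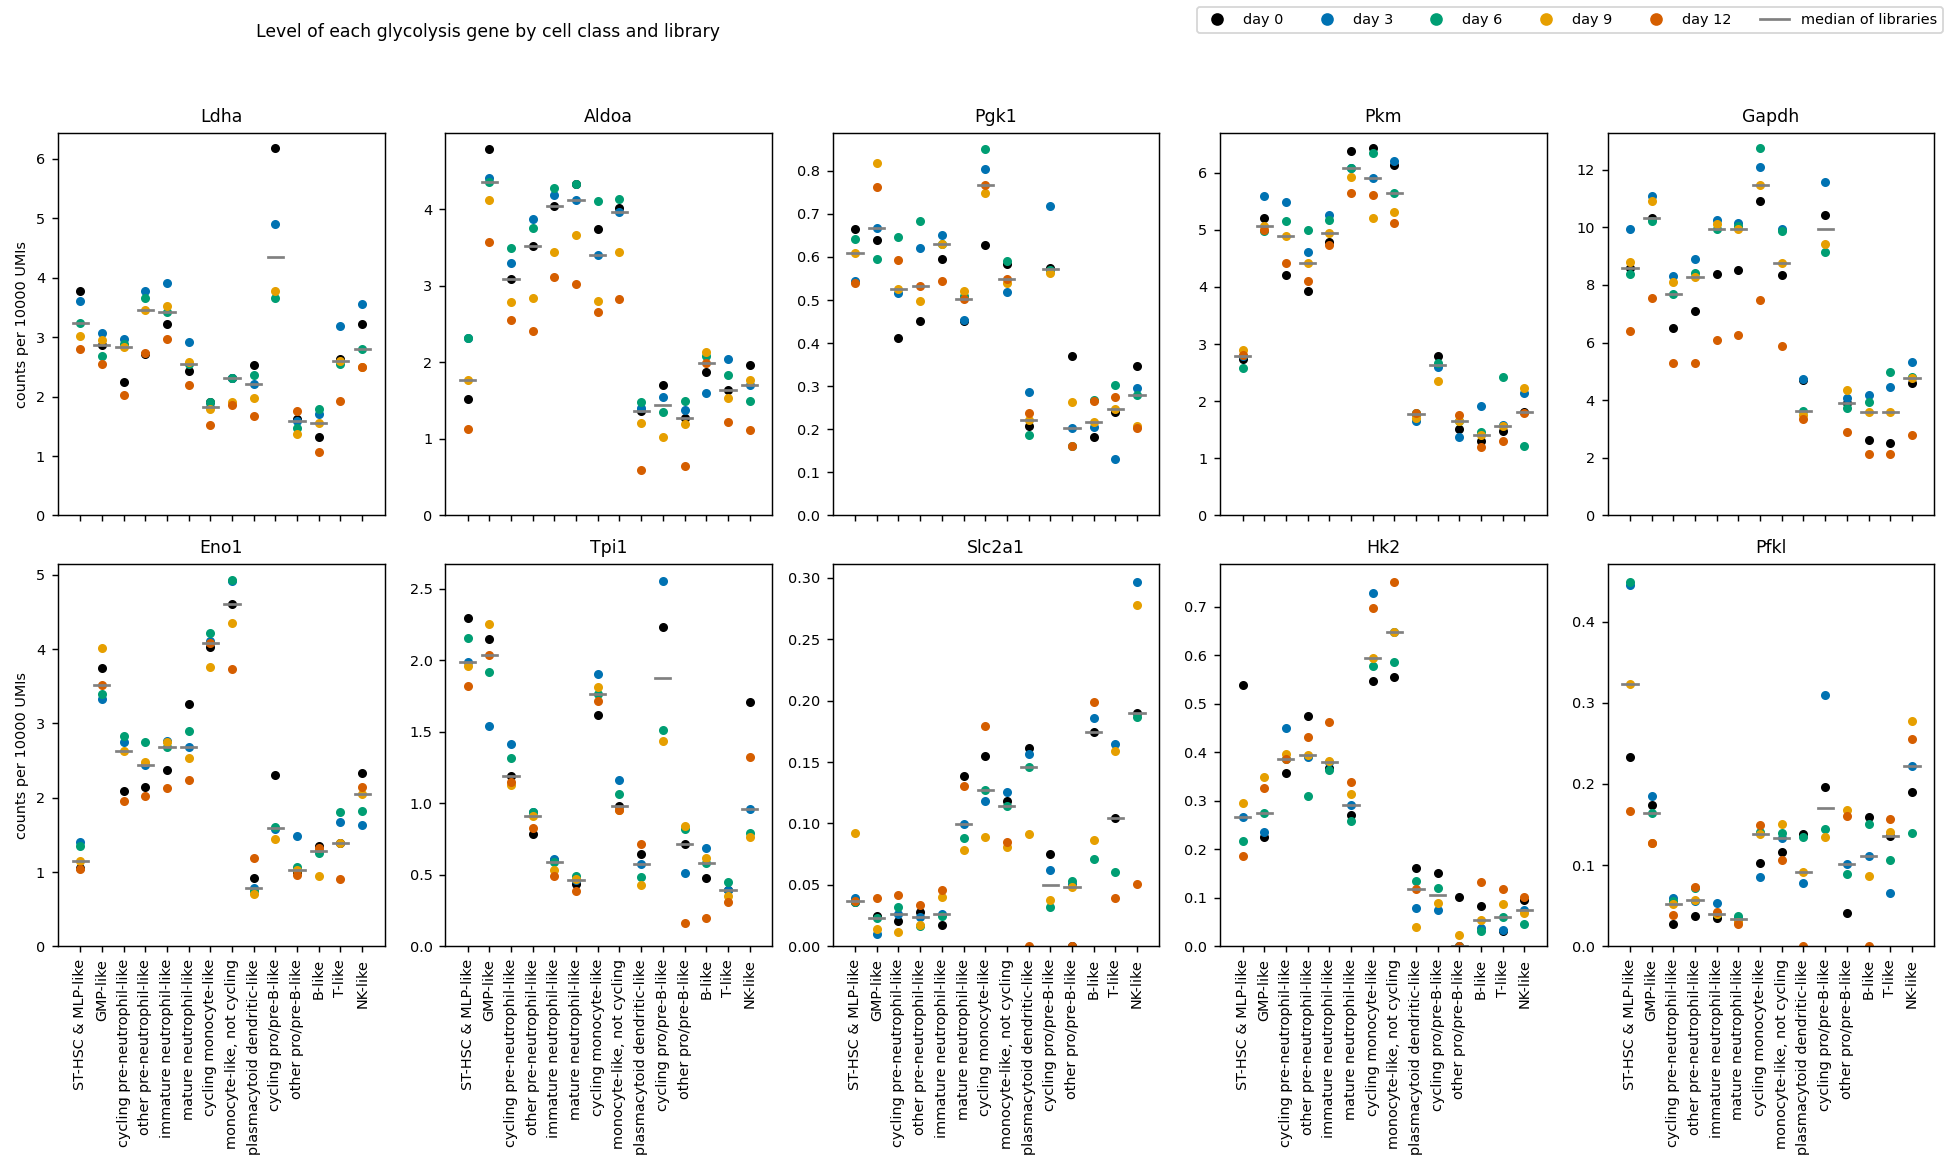
Each panel plots the level of 1 gene (y axis, counts per 10000 UMIs, from 0) in 14 cell classes (x axis), the partly cycling monocyte-like cells left out. Points are the libraries of days 0, 3, 6, 9 and 12, with 1 mouse each, and grey bars are medians over libraries; Pkm, Aldoa and Eno1 sit higher in myeloid than in lymphoid classes, and Ldha peaks in cycling pro/pre-B-like cells.

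Added together, the 10 members made up a median of 10.7 per 10000 UMIs in B-like, 10.6 in other pro/pre-B-like, 11.1 in plasmacytoid dendritic-like and 11.7 in T-like cells. NK-like cells held 14.9, ST-HSC & MLP-like cells 21.4, cycling pro/pre-B-like cells 23.4, neutrophil-like cells 25.1, monocyte-like cells 28.5 and GMP-like cells 30.1. Within the monocyte-like class the partly cycling cells held 32.9, and unnamed cells with GMP and monocyte markers held 33.5. The sum is dominated by Gapdh, Pkm, Aldoa, Ldha and Eno1, and classes with more UMIs per cell tended to stand higher: the median cell held 1644 UMIs in the B-like class and 13712 in the GMP-like class. Neutrophil-like cells, with a median of 3291 UMIs, nevertheless stood above ST-HSC & MLP-like cells, with 10637.5. The part of cell size or depth in these shares was not tested.

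The clearest difference lay within the pro/pre-B-like class. Cycling cells had higher levels of 7 of the 10 members than the other pro/pre-B-like cells of the same mice, and none was lower. This comparison used sums per library with the library as a block in edgeR's quasi-likelihood test, with Benjamini-Hochberg adjustment over all genes and a threshold of 0.05. Over all 9441 genes tested, 16.8% were higher and 26.4% lower in cycling cells, and the median gene differed by -0.25 on the log2 scale. Of the genes called, 38.9% were higher per total UMIs and 56.1% under TMM scaling, which sets the typical gene to about no change. All 10 members lay above that median, and the median member stood at 1.03. It drew on 4 libraries with 461 cycling and 773 other cells in all 5.

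Ldha stood at 6.18, 4.91, 3.66 and 3.78 per 10000 UMIs in cycling cells against 1.62, 1.58, 1.48 and 1.37 in the others at days 0, 3, 6 and 9. The lowest cycling value was above the highest of the other cells. The fold difference was 3.00 (log2 1.59 ± 0.11 SE; adjusted p = 1.75e-21, edgeR quasi-likelihood test with Benjamini-Hochberg adjustment). Within the cycling cells the level at day 0 was above those at days 6 and 9.

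Gapdh stood at 10.4, 11.6, 9.13 and 9.44 per 10000 UMIs against 3.92, 4.08, 3.73 and 4.34. The groups did not overlap, and the difference was 2.49-fold (log2 1.32 ± 0.09 SE; adjusted p = 6.37e-24 by the same edgeR test).

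Tpi1 stood at 2.24, 2.55, 1.51 and 1.44 per 10000 UMIs against 0.718, 0.510, 0.820 and 0.840, and Pgk1 at 0.574, 0.719, 0.569 and 0.562 against 0.369, 0.204, 0.161 and 0.264. Neither gene overlapped between the groups. The differences were 2.41-fold for Tpi1 and 2.36-fold for Pgk1 (adjusted p = 7.99e-11 and 1.72e-05, edgeR).

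Pkm stood at 2.80, 2.60, 2.66 and 2.34 per 10000 UMIs against 1.52, 1.38, 1.66 and 1.66, a 1.65-fold difference without overlap (adjusted p = 4.61e-07, edgeR). Eno1 stood at 2.31, 1.57, 1.60 and 1.45 against 1.0, 1.48, 1.07 and 1.03, a 1.56-fold difference (adjusted p = 0.000136, edgeR). The Eno1 groups overlapped, because the other cells at day 3 lay above the cycling cells at day 9.

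Hk2 stood at 0.151, 0.0744, 0.12 and 0.0899 per 10000 UMIs in cycling cells against 0.103, 0, 0 and 0.0240. The other cells held 6 counts of Hk2 in all libraries, so the 3.27-fold difference was imprecise (log2 1.71, 95% interval 0.51 to 2.91; adjusted p = 0.0159, edgeR). It was no longer past the threshold without the day 6 library (adjusted p = 0.180) or the day 9 library (adjusted p = 0.0567), or in the DESeq2 Wald test (adjusted p = 0.0603).

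Aldoa, Slc2a1 and Pfkl did not pass per total UMIs, while Pfkl did under TMM (adjusted p = 0.0229, edgeR) and with DESeq2 size factors (0.0219), as 8 of 10 members then did. Aldoa differed by 0.04 on the log2 scale (95% interval -0.24 to 0.31), which covers no difference as large as those of Ldha or Gapdh. The intervals of Slc2a1 (-1.14 to 1.81) and Pfkl (0.02 to 1.62) were too wide to say the same, and Pfkl passed without day 9 (adjusted p = 0.0267, edgeR).

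**Figure D2:**
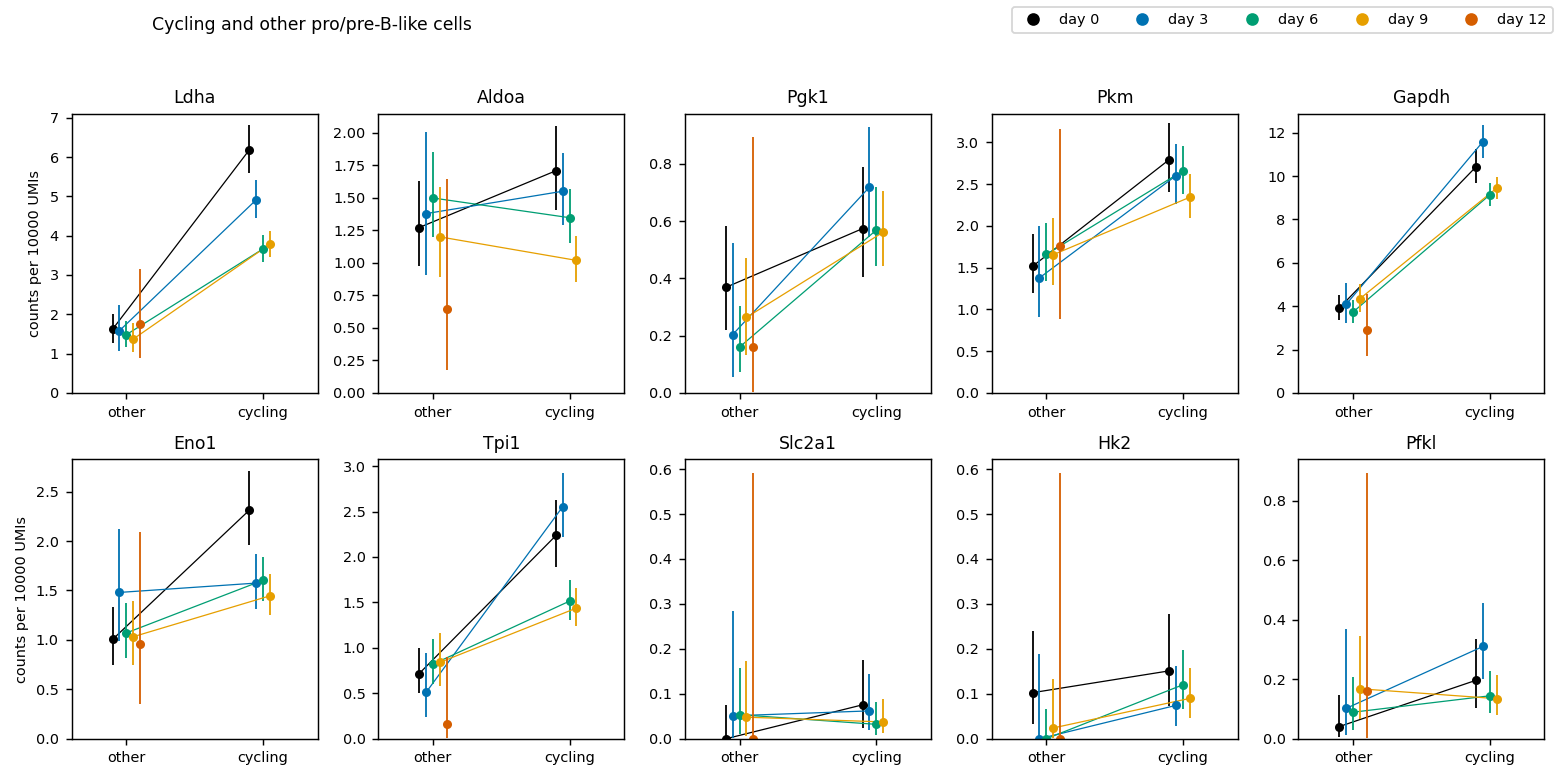
Levels (y axis, counts per 10000 UMIs, from 0) of the 10 genes in other and cycling pro/pre-B-like cells (x axis), 1 point per library coloured by day, with exact Poisson 95% intervals that cover counting error only; lines join the classes of 1 library. Ldha, Gapdh, Tpi1, Pgk1 and Pkm are higher in cycling cells in 4 of 4 libraries without overlap, while the Aldoa lines cross.

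Cycling cells held more UMIs, with a median of 6687 against 1917 in the other cells. The summed cycling markers had a median of 56.8 against 5.92 per 10000 UMIs, the summed dissociation and stress genes 24.4 against 36.0, and S100a8 with S100a9 219 against 196. The classes also pooled clusters with different leading genes. Before the mitochondrial limit, the other class held 618 cells led by Dnajc7, Ebf1 and Vpreb3 and 228 cells led by Vpreb1, Igll1 and Dntt. The cycling class held 269 cells led by Myl4 and Vpreb3 and 258 cells led by Igll1, Bfsp2 and Vpreb1. Cycling was therefore not separated from the stage of B cell development. The part of depth, stage and stress genes in the member differences was not tested. With the profile of free RNA subtracted, the Ldha difference was 1.88 and the Gapdh difference 1.47 on the log2 scale.

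The rest of the pathway did not move as a block. Of 8 tested genes among the other glycolysis genes, 1 was higher (Pgam1, phosphoglycerate mutase, 1.53 against 1.06 per 10000 UMIs), 2 were lower (the hexokinase Hk1, 0.0876 against 0.218, and the platelet-type phosphofructokinase Pfkp, 0.136 against 0.254), and 5 did not pass. Among 10 lactate and pyruvate genes, 3 were higher and 2 lower. Slc16a1, a lactate and pyruvate transporter, stood at 0.987 against 0.601 and Pdha1, a subunit of pyruvate dehydrogenase, at 0.513 against 0.834 per 10000 UMIs.

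Among 8 tested regulators, Myc was higher in cycling cells (0.259 against 0.0609 per 10000 UMIs; adjusted p = 3.07e-05, edgeR), Txnip, which restrains glucose uptake, was lower (0.490 against 1.61; adjusted p = 1.33e-15), and Arnt was lower (0.0959 against 0.266). Of 7 pentose phosphate genes, Tkt was higher (2.35 against 1.46) and Rpe lower (0.275 against 0.459). Of 8 hypoxia-induced genes outside glycolysis none was higher and 2 were lower, Bnip3l (0.723 against 2.0) and Ddit4 (0.269 against 0.923).

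A group of 133 pro/pre-B-like cells came from the day 3 library alone and entered neither class. Its median cell held 19668 UMIs, the most of any pro/pre-B-like group. It held Ldha at 5.27 (exact Poisson 95% interval 5.0 to 5.55), Gapdh at 10.1 (9.72 to 10.5) and Eno1 at 3.08 (2.88 to 3.30) per 10000 UMIs. These Ldha and Gapdh levels lay within the range of the cycling cells, and the Eno1 level was above all 4 cycling values. Its cycling markers summed to 26.6 per 10000 UMIs, between those of the 2 classes. Counted with the other pro/pre-B-like cells in an alternative chosen after its values were seen, it left 3 members past the threshold (Ldha, Gapdh and Tpi1, with log2 differences of 1.15, 1.02 and 1.03).

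Between B-like and other pro/pre-B-like cells, 2 members passed, Aldoa and Slc2a1. Over 9500 genes tested in 5 libraries, 8.04% were higher and 22.3% lower in B-like cells, with a median difference of -0.22 on the log2 scale. Of the genes called, 26.5% were higher here and 50.9% under TMM. Both members were higher in B-like cells. Aldoa stood at 1.88, 1.60, 2.08, 2.13 and 1.99 per 10000 UMIs against 1.27, 1.38, 1.5, 1.20 and 0.642. The groups did not overlap, at 1.51-fold (log2 0.59 ± 0.14 SE; adjusted p = 0.000124, edgeR).

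Slc2a1 stood at 0.174, 0.186, 0.0711, 0.0865 and 0.199 per 10000 UMIs in B-like cells against 0, 0.0510, 0.0535, 0.0480 and 0. The groups did not overlap, but the other pro/pre-B-like cells held 6 counts. The fitted difference was 3.35-fold (95% interval of the log2 difference 0.62 to 2.87; adjusted p = 0.0102, edgeR), and adjusted p was 0.266 without the day 0 library. The DESeq2 Wald test gave Slc2a1 an adjusted p of 0.0540. The other 8 members did not pass per total UMIs, though Eno1 passed as higher under TMM (log2 0.40; adjusted p = 0.0306, edgeR) and with DESeq2 size factors (0.42; adjusted p = 0.0241). Values per total UMIs were a Gapdh difference of -0.21 (95% interval -0.41 to 0.00) and an Ldha difference of 0.02 (-0.25 to 0.29) on the log2 scale. With the day 3 group counted among the pro/pre-B-like cells, Aldoa no longer passed (adjusted p = 0.214).

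T-like cells differed from B-like cells in Ldha, the 1 member that passed. Over 9673 genes tested, 11.1% were higher and 18.5% lower in T-like cells, with a median difference of -0.17. Of the genes called, 37.4% were higher, and 53.6% under TMM. Ldha stood at 2.64, 3.20, 2.56, 2.60 and 1.92 per 10000 UMIs in T-like cells against 1.32, 1.71, 1.79, 1.56 and 1.06 in B-like cells. All T-like values were above all B-like values, at 1.73-fold (log2 0.79 ± 0.11 SE; adjusted p = 9.80e-11, edgeR). Pkm, Eno1 and Gapdh differed by 0.25, 0.30 and 0.09 and did not pass. Without day 0, Eno1 passed (adjusted p = 0.0272, edgeR), and without day 3, Pkm (0.0212) and, as lower, Aldoa (0.0365). Without day 12, Eno1 (0.0233) and, as lower, Tpi1 (0.0363) passed. Under TMM scaling all 3 passed as higher in T-like cells, at 0.42, 0.46 and 0.26 on the log2 scale.

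Among lactate and pyruvate genes, Pdk1, a kinase that inhibits pyruvate dehydrogenase, was higher in T-like cells (0.526 against 0.168 per 10000 UMIs; adjusted p = 1.44e-11, edgeR). Of the other glycolysis genes, Hk1 and Pfkp were higher (0.147 against 0.0740 and 0.322 against 0.123) and Pgam1 was lower (0.744 against 0.885), with 7 of 10 not passing.

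NK-like cells had 3 members higher than T-like cells and none lower. Another 615 cells with markers of both T and NK cells stayed unnamed and entered neither class. Their members summed to a median of 14.9 per 10000 UMIs, against 14.9 in NK-like and 11.7 in T-like cells. Over 8483 genes tested, 12.3% were higher and 5.21% lower in NK-like cells, with a median difference of 0.16. Of the genes called, 70.3% were higher, and 47.7% under TMM. Tpi1 stood at 1.71, 0.963, 0.795, 0.764 and 1.33 per 10000 UMIs in NK-like cells against 0.397, 0.395, 0.454, 0.353 and 0.314. The groups did not overlap, at 2.91-fold (log2 1.54 ± 0.21 SE; adjusted p = 8.76e-12, edgeR).

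Eno1 stood at 2.34, 1.63, 1.82, 2.05 and 2.14 per 10000 UMIs against 1.39, 1.68, 1.82, 1.4 and 0.903, and Gapdh at 4.59, 5.33, 4.81, 4.76 and 2.81 against 2.53, 4.45, 4.96, 3.61 and 2.12. Both overlapped and were higher in NK-like cells in 4 of 5 libraries, at 1.41-fold and 1.31-fold (adjusted p = 0.00516 and 0.00452, edgeR). Neither passed under TMM scaling (adjusted p = 0.201 and 0.366) or without the day 0 library (0.113 and 0.260), and Eno1 did not without day 12 (0.0734). Tpi1 passed in all of these. Of 14 dissociation and stress genes, 8 were higher in NK-like cells and none lower, and their part in these differences was not tested. Pdk1 was lower in NK-like cells (0.150 against 0.526 per 10000 UMIs).

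Comparisons with neutrophils depended on what the levels were taken relative to. S100a8 and S100a9 alone took a median of 3780 of 10000 UMIs in neutrophil-like cells, 1605 in GMP-like cells and 143 in monocyte-like cells. The GMP-like level was 84.0% to 106% of that in free RNA, against 7.30% to 13.4% in ST-HSC & MLP-like and 7.56% to 10.8% in non-cycling monocyte-like cells. Before the mitochondrial limit, the GMP-like class pooled clusters of 344 and 287 cells. The larger was led by the neutrophil marker Fcnb and the GMP marker Elane and met 50% of the GMP markers, and the smaller met 100%. The part of free RNA and of the larger cluster in the GMP-like values was not tested. As a share of all UMIs the median gene was higher in monocyte-like cells, by 1.07 on the log2 scale, and 72.6% of 12165 genes were called higher and 12.1% lower. In GMP-like cells the median gene was higher by 0.64, with 54.1% of 11736 genes higher and 17.8% lower. Both values of each member are given below, the first per total UMIs and the second with TMM scaling, under which the median gene differed by -0.05 and -0.12. Of the genes called, 85.7% were higher in monocyte-like cells per total UMIs and 48.3% under TMM, and in GMP-like cells 75.2% and 46.6%.

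Per total UMIs, 8 members were higher and 1 lower in monocyte-like than in neutrophil-like cells, but only 2 of 10 lay above the median gene, and under TMM 1 was higher and 8 lower. Pfkl was higher on both scales, at 0.112, 0.128, 0.146, 0.146 and 0.12 per 10000 UMIs against 0.0325, 0.0502, 0.0474, 0.0424 and 0.0400. The groups did not overlap, and the log2 differences were 1.62 and 0.50 (adjusted p = 1.50e-11 and 0.00158, edgeR).

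Ldha was lower on both scales, at 2.20, 2.20, 2.18, 1.88 and 1.77 per 10000 UMIs in monocyte-like against 2.64, 3.34, 3.03, 3.04 and 2.46 in neutrophil-like cells. The groups did not overlap, and the log2 differences were -0.50 and -1.63 (adjusted p = 7.89e-07 and 5.31e-14, edgeR). Eno1, Hk2, Tpi1, Pgk1, Gapdh and Pkm changed sign with the scale: Eno1 stood at 0.79 and -0.34, Hk2 at 0.79 and -0.34, and Tpi1 at 0.74 and -0.39. Pgk1 stood at 0.22 and -0.91, Gapdh at 0.20 and -0.93, and Pkm at 0.15 and -0.98. Aldoa stood at -0.0045 and -1.13 and passed only under TMM (adjusted p = 1.90e-12, edgeR). Slc2a1 stood at 1.13 per total UMIs and 0.00 under TMM (adjusted p = 0.992). Pkm, which passed per total UMIs, did not without day 0, 3 or 6 (adjusted p = 0.187, 0.137 and 0.0759, edgeR).

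Slc2a3, another glucose transporter, stood at 0.105 per 10000 UMIs in monocyte-like and 1.33 in neutrophil-like cells (log2 -3.70; adjusted p = 5.87e-21, edgeR). Pfkp, the platelet-type phosphofructokinase, stood at 0.396 against 0.0920, and the lactate exporter Slc16a3 at 0.623 against 0.988. Over both lists, 8 of 12 other glycolysis genes were higher and 3 lower per total UMIs, and 9 of 13 lactate and pyruvate genes were higher and 4 lower. Of 15 dissociation and stress genes, 12 were higher and 1 lower in monocyte-like cells, and their part was not tested.

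GMP-like cells had 6 members higher and 2 lower than neutrophil-like cells per total UMIs, with 2 of 10 above the median gene, and 2 higher and 8 lower under TMM. Tpi1 and Pfkl were higher on both scales. Tpi1 stood at 2.15, 1.54, 1.92, 2.25 and 2.04 per 10000 UMIs against 0.791, 0.845, 0.796, 0.722 and 0.652, and Pfkl at 0.175, 0.185, 0.165, 0.128 and 0.127 against the neutrophil values above. Neither overlapped, and the log2 differences were 1.4 and 0.64 for Tpi1 and 1.87 and 1.11 for Pfkl (adjusted p = 1.22e-29 and 4.95e-16 per total UMIs, edgeR).

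Of 15 dissociation and stress genes, 9 were lower and 4 higher in GMP-like cells, and their part was not tested.

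Slc2a1 and Hk2 were lower in GMP-like cells on both scales, by log2 differences of -1.13 and -1.88 for Slc2a1 and of -0.35 and -1.12 for Hk2. Hk2 stood at 0.225, 0.236, 0.274, 0.350 and 0.327 per 10000 UMIs against 0.359, 0.375, 0.329, 0.366 and 0.399, with overlap of the ranges and a lower value in 5 of 5 libraries. Eno1 (0.52 and -0.24), Pgk1 (0.37 and -0.39), Gapdh (0.28 and -0.48) and Aldoa (0.27 and -0.49) changed sign with the scale. Ldha (-0.03 and -0.79) and Pkm (0.0032 and -0.76) passed only under TMM, as lower (adjusted p = 3.16e-19 and 6.78e-20, edgeR).

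Within the neutrophil series, pre-neutrophil-like cells had 3 members higher and 4 lower than mature neutrophil-like cells. Of all 11015 genes tested, 42.3% were higher and 27.8% lower, with a median difference of 0.25. Of the genes called, 60.4% were higher, and 49.8% in the DESeq2 Wald test. Tpi1 stood in pre-neutrophil-like cells at a mean of 1.12 per 10000 UMIs against 0.450, with no overlap of the ranges (2.50-fold; log2 1.32 ± 0.08 SE; adjusted p = 4.07e-18, edgeR). Slc2a1 went the other way, at 0.139, 0.0999, 0.0885, 0.0787 and 0.130 in mature cells against a mean of 0.0258 in pre-neutrophil-like cells. It was 4.16-fold higher in mature cells without overlap (log2 -2.06 ± 0.19 SE; adjusted p = 5.11e-13, edgeR).

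Pkm and Aldoa were lower in pre-neutrophil-like cells in 5 of 5 libraries, at means of 4.69 against 6.02 and 3.12 against 3.89 per 10000 UMIs, and so was Gapdh at 7.32 against 8.98 (adjusted p = 1.36e-05, 8.07e-05 and 0.000121, edgeR). Pkm did not overlap, and Aldoa and Gapdh did. Hk2 and Pfkl were higher, at 0.396 against 0.295 and 0.0508 against 0.0328, and neither passed with DESeq2 size factors (adjusted p = 0.0520 and 0.0674). Ldha, Pgk1 and Eno1 did not pass, with log2 differences of 0.14, 0.15 and -0.17. Eno1 passed as lower under TMM (-0.35; adjusted p = 5.86e-05, edgeR), with DESeq2 size factors (-0.39; adjusted p = 1.35e-05) and without day 9 (adjusted p = 0.0306). Without day 0, Ldha and Pgk1 passed (adjusted p = 0.0152 and 0.0326, edgeR), and 5 members were then higher. Of 15 dissociation and stress genes, 13 were lower and 1 higher in pre-neutrophil-like cells, and their part was not tested.

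Of 10 other glycolysis genes, 3 were higher and 4 lower in pre-neutrophil-like cells, and of 12 lactate and pyruvate genes 7 were higher and 2 lower. Slc2a3 stood at 0.523 in pre-neutrophil-like and 2.36 in mature neutrophil-like cells, Slc2a6 at 0.0280 and 0.462, and Slc16a3 at 0.447 and 2.01 per 10000 UMIs. Ldhb, the heart-type lactate dehydrogenase subunit, stood at 0.287 and 0.0508. All 4 passed (adjusted p = 6.46e-26, 2.27e-26, 1.31e-25 and 3.07e-19, edgeR). Of 7 pentose phosphate genes, 5 were higher and 2 lower in pre-neutrophil-like cells. Among them Taldo1 stood at 5.16 and 12.8 per 10000 UMIs in pre-neutrophil-like and mature cells, and Rpia at 0.730 and 0.167.

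**Figure D3:**
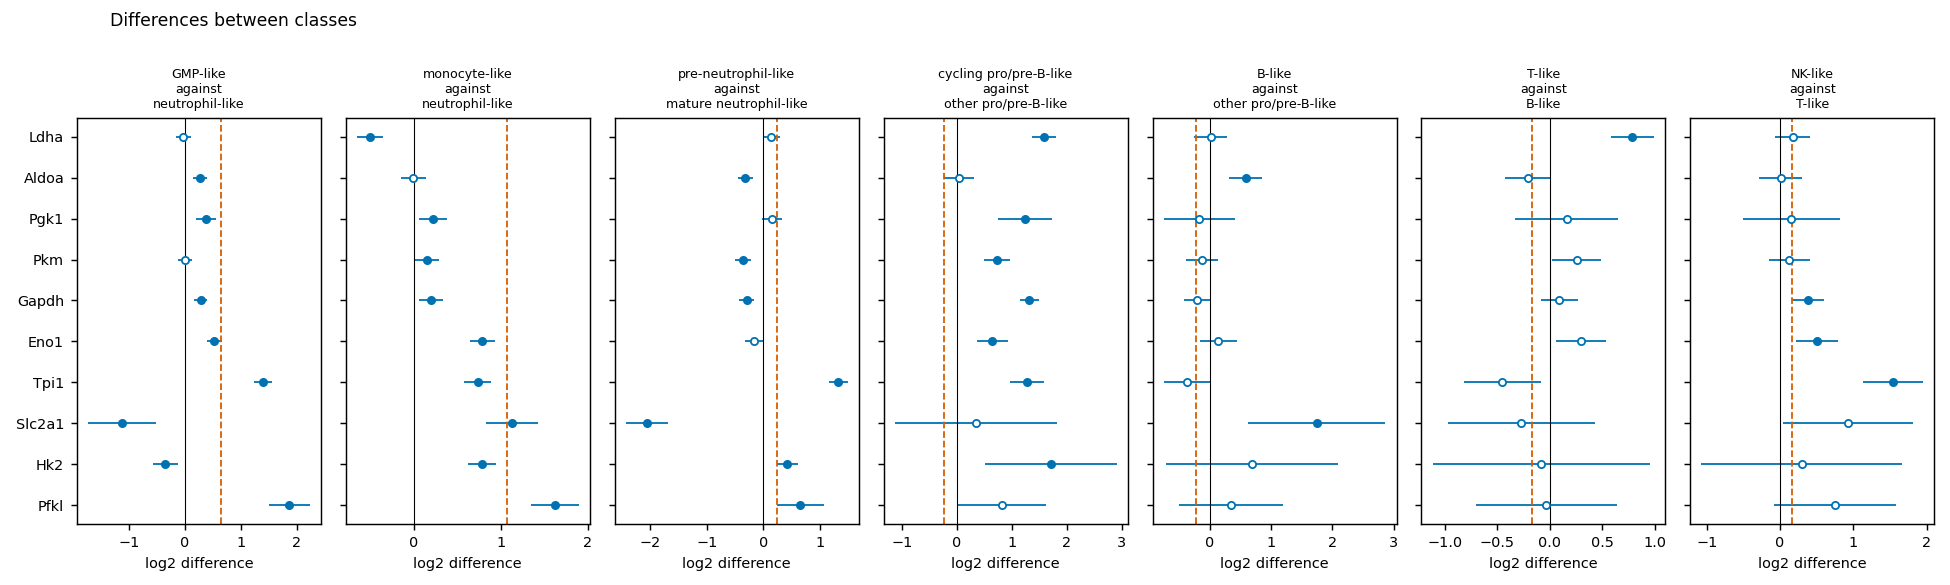
Log2 differences (x axis, first class over second, per total UMIs) of the 10 genes (y axis) in 7 comparisons, with 95% intervals from edgeR. Filled points passed an adjusted p of 0.05, the solid line is 0 and the dashed line is the median of all genes tested; in the cycling pro/pre-B-like panel all 10 genes lie right of the dashed line, and in both panels against neutrophil-like cells 2 of 10 do.

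Over the 5 libraries there was 1 mouse per day, so no difference between days could be tested. A range was taken as the highest over the lowest library, among genes with a mean of at least 50 counts per library. In T-like cells 5 of the 5 members that could be judged ranged by over 1.5-fold, where 35.4% of all genes did. Gapdh stood at 2.53, 4.45, 4.96, 3.61 and 2.12 per 10000 UMIs there, and Eno1 at 1.39, 1.68, 1.82, 1.4 and 0.903. Both were lowest at day 12 and highest at day 6. Without day 12, 2 of the 5 passed 1.5-fold. A range can only narrow when a library is left out, and the share of all genes without day 12 was not computed. With a stricter limit on mitochondrial share, 2 of the 5 passed as well. The limit was set per library at 3 median absolute deviations over the median. It follows the study's limit of 3 absolute deviations, whose centre and scale are read so here. This limit was 2.50% at day 12 and 7.07% to 9.12% in the other libraries. The median T-like cell of day 12 held 4.78%, so most T-like cells of that day were left out, and the 2 settings are not separate checks.

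In pro/pre-B-like cells 5 of 7 members ranged by over 1.5-fold (Ldha, Aldoa, Pgk1, Eno1 and Tpi1), near the 62.8% of all genes in that class. Ldha stood at 4.25, 4.99, 2.99, 3.21 and 5.35 per 10000 UMIs and Eno1 at 1.76, 2.67, 1.44, 1.35 and 2.04. Days 6 and 9 were low for both. The cycling share of the class ran 23.8%, 27.8%, 35%, 43.6% and 41.3%, and the day 3 group was in the class, and the part of these cell shares in the levels was not tested. Without the day 3 group, Eno1 at day 3 stood at 1.56 and Ldha at 4.26. Without day 12, 3 of 7 members passed, and the share of all genes was not computed for that setting.

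In B-like cells 3 of 5 members passed 1.5-fold (44.1% of all genes), in plasmacytoid dendritic-like cells 2 of 4 (45.4%), and in NK-like cells 1 of 2 (38.8%). Of 6 members in the ST-HSC & MLP-like class 2 passed (36.8%), and in GMP-like cells 0 of 7 (33.1%). In non-cycling monocyte-like cells 1 of 8 passed (26.1%), in cycling pre-neutrophil-like 2 of 8 (44.8%), in immature neutrophil-like 1 of 8 (38.8%) and in mature neutrophil-like cells 1 of 8 (36.9%). The share of members was under that of all genes in the last 6 of these classes and over it in the other 5, on few members each. Without day 12 the counts were 1 each in the B-like, ST-HSC & MLP-like and cycling pre-neutrophil-like classes and 0 in plasmacytoid dendritic-like, NK-like, non-cycling monocyte-like, immature and mature neutrophil-like cells. Ranges can only narrow with fewer libraries, so these counts cannot be set against the shares of all genes above.

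Gapdh recurred in this: it was lowest at day 12 in 11 of 11 classes and highest at day 3 in 10. In mature neutrophil-like cells it stood at 8.51, 10.1, 10.1, 9.94 and 6.26 per 10000 UMIs. Ldha was lowest at day 12 in 10 of 11 classes and Aldoa in 9, while Hk2 was highest at day 12 in 7. Of all genes with enough counts, 19.9% to 38.7% were lowest at day 12, 13.8% to 25.5% highest at day 3 and 10.4% to 33.6% highest at day 12, depending on the class. Free RNA held Gapdh at 4.92, 6.40, 6.15, 6.51 and 4.40 per 10000 UMIs, also lowest at day 12 but highest at day 9. Aldoa in free RNA was lowest at day 12 as well (3.48), Ldha stood at 3.55 at days 9 and 12, and Hk2 was highest at day 3 (0.269). The part of free RNA in these levels was not tested. The classes share libraries, so the 11 are not independent, and the day 12 library cannot be told apart from its mouse and day.

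**Figure D4:**
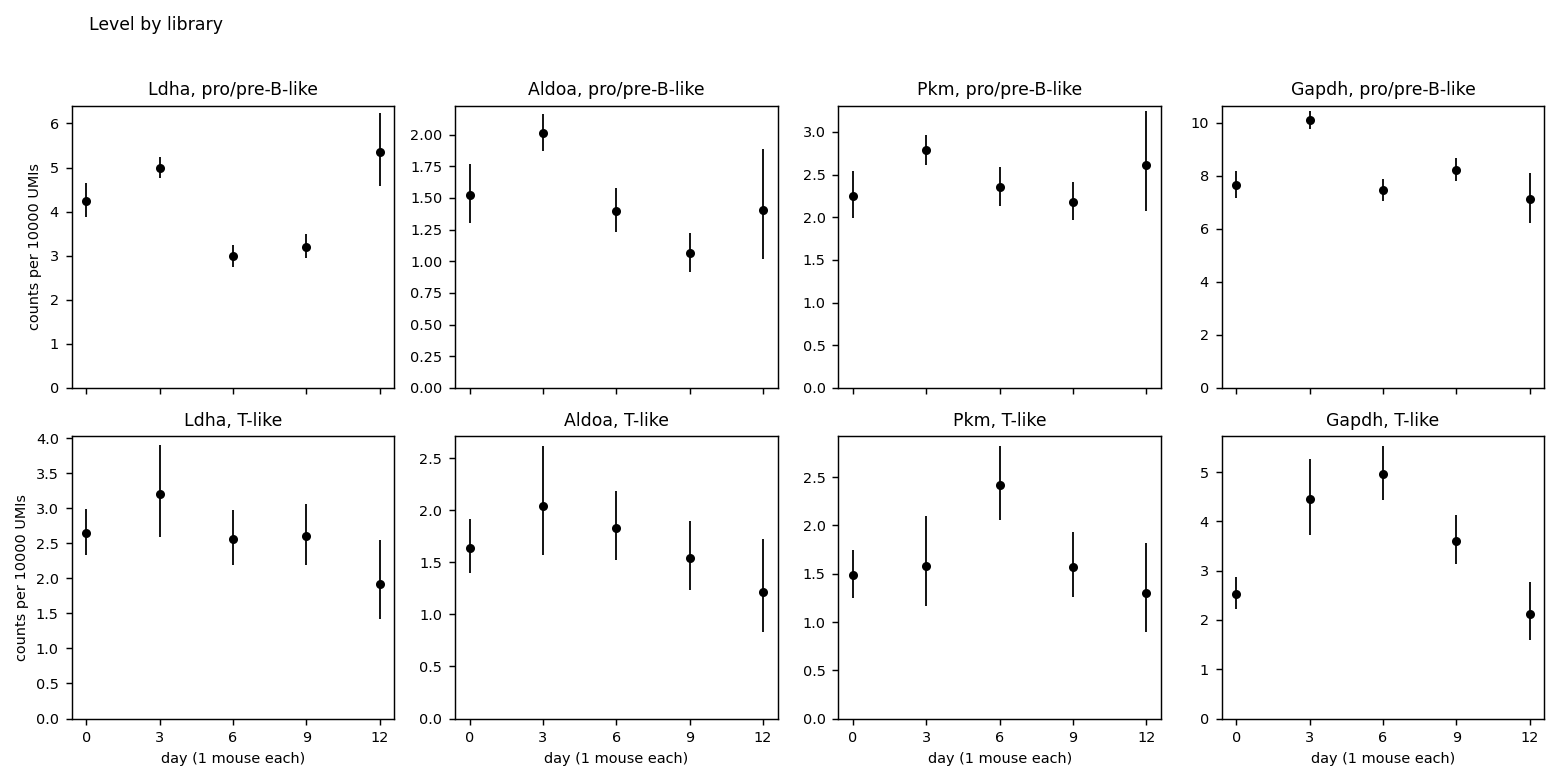
Levels (y axis, counts per 10000 UMIs, from 0) of Ldha, Aldoa, Pkm and Gapdh in pro/pre-B-like (top) and T-like cells (bottom) by day (x axis, 1 mouse each), with exact Poisson 95% intervals that cover counting error only. Gapdh in T-like cells is lowest at day 12 (2.12) and highest at day 6 (4.96), and Ldha in pro/pre-B-like cells is low at days 6 and 9.

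Across 79 sums of a class and library from 19 groups, most members varied together. The Pearson correlation of each member with the mean of the others, on log2(level + 0.1), was 0.87 for Gapdh, 0.86 for Pgk1, 0.83 for Eno1, 0.82 for Pkm, 0.72 for Hk2, 0.69 for Aldoa and 0.63 for Tpi1. Ldha stood at 0.42, Pfkl at 0.16 and Slc2a1 at -0.06, the last 2 with few counts. The points share libraries and differ in depth and in the share of S100a8 and S100a9, and no p was computed.

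Among 2076 genes outside the lists, those most like the members' mean profile were Znhit1 (0.78), 1110008F13Rik (0.78), Gng5 (0.76), Shfm1 (0.75), Rnpep (0.74), Rtn3, Arpc1b, Aurkaip1 and Gpx4 (0.73 each) and Mrpl33 (0.72), over the same 79 points. None of these is a glycolytic enzyme.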

How the data were processed

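Droplet libraries of bone marrow from 5 mice (10x Genomics 3′ v2 chemistry), 1 per day, were used. Per the submitters' processing notes, the authors made the count matrices with Cell Ranger on mm10 and deposited raw UMI counts of every barcode. Total UMIs per library were 33425695 to 43554233 and the median kept barcode held 2874 to 3786, with 80.2% to 84.5% of UMIs in barcodes of at least 500 UMIs. Any pair of libraries shared 44 to 73 barcodes, where chance gives 43.6 to 68.9.

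Cells were clustered with leidenalg 0.10.2 on a graph of shared neighbours (20 components, 20 neighbours, resolution 0.6). Genes were the 1000 most variable of each library that recurred in at least 2 libraries, without the members, the pathway lists and mitochondrial genes. Cells of the B, T and NK, progenitor, monocyte and dendritic lineages were then clustered again within each lineage, and clusters were named from marker lists. A name needed at least 50% of a type's markers, each in at least 20% of cells and at least 2 times its level elsewhere, and 2957 cells stayed unnamed: 1724 in clusters with markers of a second type, 695 in clusters with mostly high Scrublet scores, 330 in clusters with few genes and 208 in a cluster led by genes of another type. Scrublet called no more than 0.0341% in 4 of 5 libraries, so its caller had not worked there. No single cell was removed as a doublet, but the 695 cells above entered no class.

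Raw counts were summed per class and library with at least 20 cells. Classes were compared in edgeR 4.0.16 (quasi-likelihood, library as block, offsets from total UMIs, genes with at least 20 counts in all and a count in at least 3 sums), with DESeq2 1.42.0 as an alternative. A simulation on the counts of the cycling comparison, over 9284 genes, recovered 88.0% of genes changed by 1 on the log2 scale and 100.0% of those changed by 2. Of its calls, 3.09% were false. The false share was 12.8% for B-like against other pro/pre-B-like, 8.26% for pre-neutrophil-like against mature neutrophil-like and 6.10% for NK-like against T-like cells. In the rest it was 3.00% to 3.45%. Changed genes were drawn from those with an expected mean of at least 20 counts, so scarce genes were not covered. A small part of the genes was changed, up or down at random, with the same dispersion for every gene and no library effect. These rates therefore do not cover comparisons where many genes differ or most called genes go the same way. Coordinates of genes are GRCm38. P-values measure how far the class difference within a library varied between the mice used, with dispersion estimates that share information between genes. These were 5 mice of different days, or 4 in the cycling comparison. Intervals of single levels are exact Poisson at 95%, and intervals and floors (3 counts) cover counting error only. Genes named, apart from those that describe cell classes, were the 10 members, genes of the pathway lists with at least 20 counts and the 10 genes most like the members' mean profile. Members and lists were chosen with earlier results of these data known. Alternatives are given at the end.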

Additional observations from a re-analysis of the deposited data

Results flagged for a closer look

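Of 110 sets of 4 or 5 library values, 1 member in 1 class each, 6 held a library whose gap to the nearest of the others exceeded Dixon's 95% limit, where chance flags about 1 in 20. Pkm in T-like cells stood at 2.42 per 10000 UMIs at day 6, with the other libraries at 1.30 to 1.58. Gapdh in GMP-like cells stood at 7.53 at day 12, with the others at 10.2 to 11.1. Eno1 in B-like cells stood at 0.941 at day 9, with the others at 1.26 to 1.35. Hk2 in immature neutrophil-like cells stood at 0.462 at day 12, with the others at 0.364 to 0.381. Pfkl in pro/pre-B-like cells stood at 0.254 at day 3, with the others at 0.127 to 0.159, and the 133 cells found at day 3 alone were in this class. Slc2a1 in ST-HSC & MLP-like cells stood at 0.0923 at day 9, from 10 counts, with the others at 0.0359 to 0.0396. Each value is 1 mouse, and its cause was not tested.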

How the results depend on the processing

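Beside the tests per total UMIs in edgeR, a member in a comparison kept its direction and its side of the threshold in 652 cases under another setting, lost its call in 28, gained one in 24 and changed sign in 83. With 1 library left out these numbers were 304, 9, 10 and 21. The cause of the changes below was not tested. Each value rests on at most 5 mice, and Slc2a1, Hk2 and Pfkl had too few counts in lymphoid cells for small differences to be detectable. No paired analysis by replicate number was possible because each day had 1 library. The classes of a library were paired by the library block instead, and without this block each count of members called was within 1.5 times that with it, although Gapdh lost its call in GMP-like, monocyte-like, pre-neutrophil-like and NK-like cells (adjusted p = 0.0709, 0.213, 0.0823 and 0.225, edgeR).

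Scaling changed the most. With TMM, DESeq2 size factors and the DESeq2 Wald test alike, 2 members were higher and 8 lower in GMP-like than in neutrophil-like cells, and 1 was higher and 8 lower in monocyte-like cells. With DESeq2 size factors and in the Wald test 1 member was higher in pre-neutrophil-like than in mature cells. With TMM and DESeq2 size factors 4 members were higher in T-like than in B-like cells, and with all 3 scalings 1 was higher in NK-like than in T-like cells. In the Wald test 1 member was higher in B-like than in other pro/pre-B-like cells. The log2 differences that changed sign follow for TMM, DESeq2 size factors and the Wald test in that order. In GMP-like against neutrophil-like cells Aldoa stood at -0.49, -0.48 and -0.48, Pgk1 at -0.39, -0.38 and -0.39, Pkm at -0.76, -0.75 and -0.75, Gapdh at -0.48, -0.47 and -0.47, and Eno1 at -0.24, -0.23 and -0.23. In monocyte-like against neutrophil-like cells Pgk1 stood at -0.91, -0.91 and -0.91, Pkm at -0.98, -0.99 and -0.99, Gapdh at -0.93, -0.94 and -0.94, Eno1 at -0.34, -0.35 and -0.35, Tpi1 at -0.39, -0.40 and -0.40, and Hk2 at -0.34, -0.35 and -0.35. Slc2a1 changed sign there with DESeq2 size factors (-0.0054) and in the Wald test (-0.0043). In pre-neutrophil-like against mature cells Ldha stood at -0.045, -0.083 and -0.083, and Pgk1 at -0.034, -0.072 and -0.074. In B-like against other pro/pre-B-like cells Pgk1 stood at 0.090, 0.10 and 0.16, Pkm at 0.14, 0.15 and 0.16, and Gapdh at 0.054, 0.068 and 0.067. In T-like against B-like cells Hk2 stood at 0.094, 0.083 and 0.15, and Pfkl at 0.13, 0.12 and 0.24. In NK-like against T-like cells Ldha stood at -0.044, -0.036 and -0.034, Aldoa at -0.20, -0.20 and -0.22, Pgk1 at -0.058, -0.055 and -0.054, and Pkm at -0.086, -0.080 and -0.068.

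Over all genes, 4085 were called between cycling and other pro/pre-B-like cells, against 2344 in the DESeq2 Wald test and 874 with the day 3 group counted among the other cells, an alternative chosen after seeing the data. Between B-like and other pro/pre-B-like cells 2880 were called, against 1422 in the Wald test and 1428 with the day 3 group. Between T-like and B-like cells 2861 were called, against 1559 in the Wald test, and between NK-like and T-like cells 1488, against 557. With the day 3 group, 3 members were higher in cycling than in other pro/pre-B-like cells and Aldoa stood at -0.12. With it, 1 member was higher in B-like cells, and Ldha stood at -0.40, Eno1 at -0.12, Hk2 at -0.19 and Pfkl at -0.10.

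Other settings changed the sign of small differences. Without the library block, Aldoa stood at 0.00089 in monocyte-like against neutrophil-like cells, Hk2 at 0.049 in T-like against B-like cells and Aldoa at -0.026 in NK-like against T-like cells. With no mitochondrial limit these were 0.0018, 0.024 and -0.011. Without the highest Scrublet scores, Aldoa stood at -0.017 in cycling pro/pre-B-like cells. With all classes in 1 fit, Hk2 stood at 0.018 in T-like against B-like cells. With free RNA subtracted, Pfkl stood at 0.020 there and Aldoa at -0.0041 in NK-like against T-like cells. With the study's mitochondrial limit 2 members were higher and 1 lower in T-like than in B-like cells.

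The number of members ranging by 1.5-fold over libraries moved with the cells and the counts used. With every cell of at least 1000 UMIs thinned to 1000 UMIs it was 6 in cycling pre-neutrophil-like, 2 in immature and 3 in mature neutrophil-like, 6 in GMP-like, 5 in ST-HSC & MLP-like, 6 in non-cycling monocyte-like, 4 in plasmacytoid dendritic-like and 2 in NK-like cells. Thinning leaves fewer counts behind each level. Members were judged by their counts before thinning, and no share of all genes was computed with it. With the study's mitochondrial limit, 2.50% at day 12 and 7.07% to 9.12% in the other libraries, the number was 1 in GMP-like, 1 in ST-HSC & MLP-like, 2 in non-cycling monocyte-like, 0 in plasmacytoid dendritic-like, 3 in pro/pre-B-like, 1 in B-like, 2 in T-like and 2 in NK-like cells. By the mean over cells it was 1 in GMP-like, 1 in ST-HSC & MLP-like and 2 in NK-like cells.

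With 1 library left out in turn, this number ran from 1 to 2 in cycling pre-neutrophil-like and ST-HSC & MLP-like cells, from 0 to 1 in immature and mature neutrophil-like, non-cycling monocyte-like and NK-like cells, from 0 to 2 in plasmacytoid dendritic-like, from 3 to 5 in pro/pre-B-like, from 1 to 3 in B-like and from 2 to 5 in T-like cells. A range can only narrow with fewer libraries. Members higher ran from 3 to 5 in pre-neutrophil-like against mature cells, from 1 to 2 in B-like against other pro/pre-B-like cells, from 1 to 2 in T-like against B-like cells (from 0 to 1 lower) and from 1 to 3 in NK-like against T-like cells. Log2 differences that changed sign in this way ran, in GMP-like against neutrophil-like cells, from -0.067 to 0.0049 for Ldha and from -0.024 to 0.034 for Pkm. In monocyte-like against neutrophil-like cells Aldoa ran from -0.030 to 0.0099. In cycling against other pro/pre-B-like cells Aldoa ran from -0.11 to 0.13 and Slc2a1 from -0.35 to 0.34. In B-like against other pro/pre-B-like cells Ldha ran from -0.082 to 0.15, Pgk1 from -0.51 to 0.24 and Pfkl from -0.10 to 0.84. In T-like against B-like cells Slc2a1 ran from -0.61 to 0.00025, Hk2 from -0.35 to 0.49 and Pfkl from -0.22 to 0.14. In NK-like against T-like cells Aldoa ran from -0.092 to 0.088 and Pgk1 from -0.032 to 0.26.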
